A study of Mus musculus with 9 samples.

Results

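Receptors for chemokines and other chemoattractants were followed in bone-marrow-derived macrophages (BMDMs) of the mouse, which were grown in culture. The 9 genes Ccr1, Ccr2, Ccr3, Ccr7, Ccrl2, Cx3cr1, Cxcr4, C5ar1 and C3ar1 were picked by symbol, 9 of 24061 symbols in the count table, and rows that share a symbol were added. Cells came from C57BL/6J mice, female and 8 to 10 weeks old, and were differentiated for 7 days with 20% L-cell conditioned medium, a source of macrophage growth factor. They were then kept for 1 day without serum in 4% L-cell medium. In the vehicle group (Veh) cells received the solvent DMSO. In the LPS group they received DMSO and then 10 ng/mL lipopolysaccharide, a bacterial agonist of the receptor TLR4, for 2 hr. In the T0+LPS group 500 nM T0901317 (T0), a synthetic agonist of the liver X receptors (LXRs), was given 3 hr ahead of the same LPS dose. All cells were wild type, no group had T0 without LPS, and the hour at which Veh cells were collected is not given in the sources used here. Each group had 3 libraries from separately differentiated cultures.

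Chemoattractant receptors are G protein-coupled receptors of the cell surface that let a leukocyte move up a gradient of a secreted protein. Most couple to inhibitory G proteins, and the released subunits activate phosphoinositide 3-kinase and the GTPase Rac, which drives the leading edge. Kinases and arrestins then take the receptor off the surface. In monocytes and macrophages CCR2 is known for exit from the bone marrow and entry into inflamed tissue, CX3CR1 marks patrolling monocytes and many resident macrophages, CXCR4 retains cells near sources of CXCL12, and C5AR1 and C3AR1 sense complement fragments. CCRL2 is atypical: it binds chemerin and presents it without signalling in the usual way.

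Library totals were between 13299044 and 16467983 counts. Of the 6 macrophage markers examined, 5 were abundant, with summed levels of 25899 to 28129 CPM (counts-per-million) in Veh, 29288 to 30366 in LPS and 31637 to 33189 in T0+LPS, and Itgam was at 0 in every library because only 3 of its bases are not shared with other rows. Most of that sum was Lyz2, with means of 19762, 21439 and 23752 CPM in Veh, LPS and T0+LPS. The means of Emr1 and Csf1r also rose in that order. Fcgr1 did not, with 127, 70.9 and 88.9 CPM, and Cd68 stayed level at 534, 540 and 532 CPM. The 7 markers of eosinophils, basophils and mast cells had at most 3 counts in any library, and summed monocyte markers reached at most 1.03 CPM. Of these 7, Siglecf (listed as Siglec5) and Ms4a2 could be counted on only 102 and 168 unshared bases. Neutrophil markers summed to 1.28 to 1.97 CPM in Veh, 2.93 to 3.93 in LPS and 2.30 to 2.82 in T0+LPS, and the part of such cells in the results was not tested. Dendritic cell markers, among which Xcr1 is itself a chemokine receptor, summed to 0.41 to 0.53 CPM in Veh, 2.24 to 2.91 in LPS and 2.15 to 3.00 in T0+LPS. That sum rose mainly through Xcr1 (mean 0.248 CPM in Veh and 1.79 in LPS) and Zbtb46 (0.095 and 0.72). Cd209a went from 0.111 to 0 CPM, and Flt3 and Siglech were at 0 in Veh and LPS. Cd83 was counted on only 7 unshared bases. In bulk RNA, fewer cells of a type and less RNA per cell cannot be told apart. Both treatments were visible: LPS raised Il1b by 9.34 and Ptgs2 by 9.23 on the log2 scale, and T0 before LPS raised the LXR targets Abca1 by 1.47 and Abcg1 by 2.09 over LPS alone.

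The receptors divided into rising and falling genes after LPS. Of 8 receptors tested, 4 were higher in LPS than in Veh (Ccrl2, Ccr1, Ccr3 and C5ar1), 3 were lower (Cxcr4, Ccr2 and Cx3cr1) and C3ar1 was not called. A gene was called when the quasi-likelihood test of edgeR gave an adjusted p under 0.05, with Benjamini-Hochberg adjustment over all genes tested. Over all 9559 genes tested 32.9% were called higher and 31.2% lower, so a call in either direction was common in this comparison. In 6 of the 8 receptors the Veh and LPS libraries did not overlap, against 67.3% of all genes. An exact permutation test of 3 libraries against 3 cannot give a p under 0.1. The median log2 change of the 8 receptors was 0.23, against 0.00 over all genes. These values are relative to TMM scaling, which set the median gene near 0. With library totals alone the median gene was at -0.28, lower calls were 76.2% of all calls in place of 48.6%, and the receptors were called 3 higher and 4 lower, since C5ar1 was no longer called and C3ar1 was then called lower.

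T0 before LPS changed fewer receptors. Against LPS alone, Cxcr4 and C3ar1 were higher and Cx3cr1 was lower in T0+LPS, and the other 5 tested receptors were not called. This comparison had 1.35% of 9348 genes called higher and 1.83% called lower. The libraries of the groups did not overlap for those 3 receptors, against 19.1% of all genes, and the median log2 change of the 8 receptors was 0.02. Against Veh, T0+LPS cells had 4 receptors higher (Ccrl2, Ccr3, Ccr1 and C3ar1) and 3 lower (Cxcr4, Cx3cr1 and Ccr2), where 32.4% of 9636 genes were called higher and 32.9% lower. There 7 of 8 receptors did not overlap, against 69.4% of all genes. The comparisons share libraries, so their values are given side by side for each gene and are not independent of one another.

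**Figure D1:**
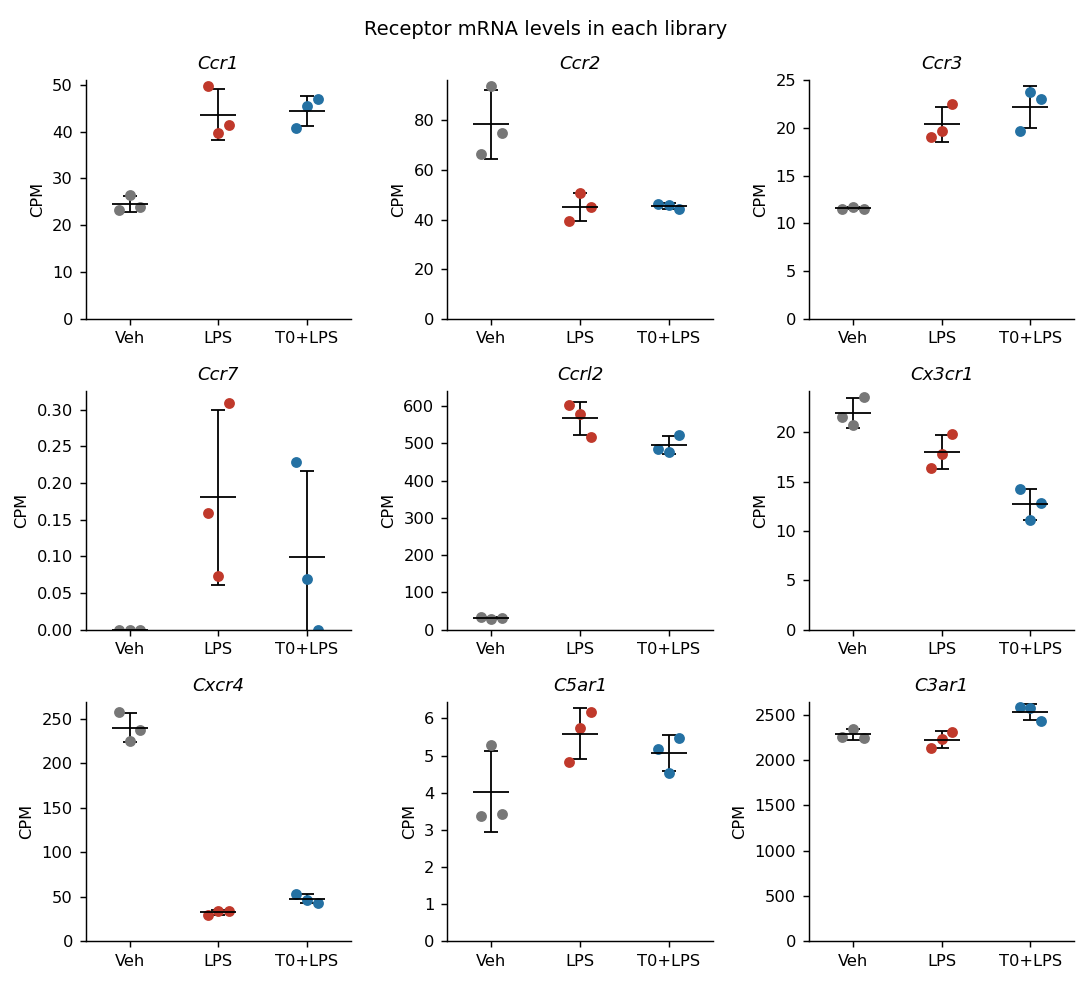
Each panel plots 1 receptor, with the level in CPM (TMM-scaled over 9 libraries) on a linear axis from 0 and the groups Veh, LPS and T0+LPS across. Points are single libraries and black lines are the mean ± SD of 3. Ccrl2 lay between 30.2 and 35.1 CPM in Veh and between 477 and 604 CPM in the other libraries, Cxcr4 showed the opposite order, and all Ccr7 points lay below 0.31 CPM.

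The start regions of the genes that moved most, or side by side, are shown first. They are RefSeq windows of build GRCm38.p6, from 250 bases before to 50 after the annotated start site, written 5′ to 3′ on the strand of the gene, with capitals for letters that match a searched motif. The motifs were picked after the results were known. The Cxcr4 window (chr1:128592250-128592549, minus strand) is shown because Cxcr4 fell most, and its capitals are overlapping TATAAA matches on both strands, 32 and 30 bases before the start.
Cxcr4: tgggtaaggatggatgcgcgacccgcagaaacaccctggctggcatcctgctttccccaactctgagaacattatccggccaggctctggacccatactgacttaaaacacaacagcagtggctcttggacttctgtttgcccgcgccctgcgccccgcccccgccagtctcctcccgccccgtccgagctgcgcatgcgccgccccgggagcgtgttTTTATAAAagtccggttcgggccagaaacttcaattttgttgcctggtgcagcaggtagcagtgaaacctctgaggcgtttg
The Ccrl2 window (chr9:111057469-111057768, minus strand) belongs to an annotated start upstream of the row that was counted. Of the 3 RefSeq windows of Ccrl2, the gene that rose most, it was picked after the search because it alone held matches to the NF-kB letters GGGANNNNCC, 68 and 56 bases before that start, which are in capitals. The window of the counted start and the other one held none.
Ccrl2: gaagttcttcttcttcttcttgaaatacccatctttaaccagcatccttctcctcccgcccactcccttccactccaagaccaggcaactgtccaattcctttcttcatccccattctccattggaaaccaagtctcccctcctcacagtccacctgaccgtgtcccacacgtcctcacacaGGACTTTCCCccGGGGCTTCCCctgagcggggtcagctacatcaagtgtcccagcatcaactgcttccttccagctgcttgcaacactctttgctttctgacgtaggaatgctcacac
Ccr1 (chr9:123968643-123968942, minus strand) and Ccr3 (chr9:124021721-124022020, plus strand) are neighbours that rose by like amounts. Each window has 1 NF-kB match, 74 bases before the start in Ccr1 and 179 before it in Ccr3, and the second capitalised run of Ccr3 is a match to the AP-1 letters TGANTCA, 144 bases before the start.
Ccr1: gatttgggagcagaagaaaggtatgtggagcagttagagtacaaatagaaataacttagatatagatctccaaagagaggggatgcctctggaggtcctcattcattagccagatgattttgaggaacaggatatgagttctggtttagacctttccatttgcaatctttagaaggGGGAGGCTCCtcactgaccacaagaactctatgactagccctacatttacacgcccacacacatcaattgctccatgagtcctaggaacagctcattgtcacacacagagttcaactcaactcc
Ccr3: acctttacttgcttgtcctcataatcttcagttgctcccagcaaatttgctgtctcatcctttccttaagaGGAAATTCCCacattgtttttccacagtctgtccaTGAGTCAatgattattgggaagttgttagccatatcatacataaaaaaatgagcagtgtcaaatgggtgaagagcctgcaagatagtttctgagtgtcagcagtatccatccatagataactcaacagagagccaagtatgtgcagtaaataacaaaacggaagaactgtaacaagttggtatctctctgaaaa

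Both strands were searched, and a match says only that the letters are there. Of 32851 RefSeq windows, 20.7% held GGGANNNNCC, 7.81% held TGANTCA and 13.6% held TATAAA. Among the windows of the counted starts of 8 receptors, NF-kB letters occurred in Ccr1 and Ccr3, AP-1 letters in Ccr3 and C3ar1, and TATAAA in Cxcr4 and C3ar1. None of these 8 windows held the IRF letters GAAANNGAAA (3.44% of all windows), the PU.1 letters GAGGAAG (13.6%) or the LXR half-site letters AGGTCA (16.3%). Ccr7 had no window in the table. C5ar1 had 2 counted rows, and its window was that of the start at position 16259338 of chromosome 7. The upstream counted start, at 16259540, had no window and was not searched.

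Cxcr4, the receptor for CXCL12, fell most of the 8 tested receptors after LPS, and was partly higher again when T0 was given first. The gene is on the minus strand of chromosome 1 (mm10 1:128588199-128592299). Its level was 258, 225 and 237 CPM in the Veh libraries, 28.9, 34.2 and 33.9 CPM in LPS, and 53.4, 46.3 and 43.2 CPM in T0+LPS. The groups lay fully apart, with T0+LPS between the others and nearer to LPS. The LPS mean was 13.5% of the Veh mean, a log2 change of -2.89 ± 0.07 (SE, adjusted p = 1.3e-15, edgeR). T0+LPS was at 147% of LPS, a log2 change of 0.56 ± 0.09 (adjusted p = 0.0018, edgeR). It still was at 19.8% of Veh (log2 change -2.36 ± 0.07, adjusted p = 2.6e-14, edgeR). The T0 difference was called in each of the 6 fits that left out 1 library, with log2 values from 0.47 to 0.62, and in each of the 10 other alternatives.

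CCR2, the receptor for the monocyte chemoattractants CCL2 and CCL7, also fell with LPS at the mRNA level. Ccr2 was at 66.6, 93.7 and 75.0 CPM in Veh, 39.5, 50.7 and 45.2 CPM in LPS, and 46.2, 45.8 and 44.2 CPM in T0+LPS. Every Veh library was above every library that had received LPS, and the LPS and T0+LPS libraries overlapped. The log2 change was -0.79 ± 0.11 for LPS against Veh (adjusted p = 6.6e-06, edgeR), and LPS cells held 57.5% of the Veh level. For T0+LPS against LPS it was 0.01 ± 0.08 (adjusted p = 0.98, edgeR).

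Cx3cr1, which encodes the fractalkine receptor, was the receptor that was lower in T0+LPS than in LPS. Its level was 21.6, 20.7 and 23.6 CPM in Veh, 16.4, 17.8 and 19.9 CPM in LPS, and 14.2, 11.1 and 12.8 CPM in T0+LPS. The groups formed a descending series without overlap. The log2 change was -0.28 ± 0.09 for LPS against Veh (adjusted p = 0.01, edgeR) and -0.51 ± 0.11 for T0+LPS against LPS (adjusted p = 0.018, edgeR), and T0+LPS was at 57.9% of Veh. The call for LPS was lost without the third Veh library (adjusted p = 0.056) or the first LPS library (0.062) in edgeR. The T0 call was lost without the third LPS library (0.053), the second T0+LPS library (0.11) or the third (0.055), with a log2 change of -0.41 at the smallest. The fall from Veh to T0+LPS, -0.82 ± 0.10 (adjusted p = 1.6e-06, edgeR), was called without any 1 library.

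Ccrl2, the atypical chemerin-binding receptor, rose most. The levels were 35.1, 30.2 and 32.5 CPM in Veh, 604, 580 and 518 CPM in LPS, and 484, 477 and 522 CPM in T0+LPS. LPS raised it 17.4-fold (log2 change 4.12 ± 0.07, adjusted p = 1.5e-17, edgeR). The mean of T0+LPS was 87.2% of the LPS mean, but the highest T0+LPS library was above the lowest LPS library. That difference of -0.20 ± 0.06 on the log2 scale was not called (adjusted p = 0.076, edgeR). It passed the threshold without the third LPS library (log2 change -0.26, adjusted p = 0.004), with no filter on low counts (adjusted p = 0.0045) and in DESeq2 (adjusted p = 0.043). The fit with no filter had nearly the same log2 change (-0.19) as the main fit, so only its adjusted p differed clearly. Reads for Ccrl2 were counted on a single row of 2110 bases that starts at position 111057270 of chromosome 9.

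CCR1, a receptor for CCL3, CCL5, CCL6 and CCL9, and CCR3, best known as the eotaxin receptor of eosinophils, rose by nearly the same amount. Ccr1 was at 23.2, 26.5 and 23.9 CPM in Veh, 49.7, 39.7 and 41.5 CPM in LPS, and 40.8, 45.4 and 46.9 CPM in T0+LPS. Ccr3 was at 11.6, 11.7 and 11.5 CPM in Veh, 19.0, 19.7 and 22.5 CPM in LPS, and 19.7, 23.8 and 23.1 CPM in T0+LPS. In both genes the Veh libraries were below all others, and LPS and T0+LPS overlapped. The log2 change with LPS was 0.83 ± 0.08 for Ccr1 (adjusted p = 2.9e-07, edgeR) and 0.82 ± 0.09 for Ccr3 (adjusted p = 7e-07, edgeR). For T0+LPS against LPS these were 0.03 ± 0.08 (adjusted p = 0.94, edgeR) and 0.12 ± 0.10 (adjusted p = 0.65, edgeR). The defining eosinophil genes Epx, Prg2 and Siglecf (listed as Siglec5) were among the 7 granulocyte and mast cell markers with at most 3 counts in any library. Siglecf had only 102 unshared bases, so its low counts say little.

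These 3 CC receptor genes lie on chromosome 9 in the order Ccr1 (mm10 9:123962126-123968692), Ccr3 (9:124021971-124031689) and Ccr2 (9:124102183-124109140), with gaps of 53.3 and 70.5 kb. Along that order the log2 changes with LPS were 0.83, 0.82 and -0.79, so the first and second rose and the last fell. Xcr1, 100.1 kb before Ccr1, rose by 2.90 ± 0.43 on the log2 scale (adjusted p = 2.2e-05, edgeR), from 2, 7 and 3 counts in Veh to 15, 32 and 24 in LPS. Of the receptor genes before Xcr1, Ccr9 had at most 1 count and Cxcr6 at most 6 counts in any library. The remaining receptor genes of this region are not described here. Neighbouring CC receptors have similar coding sequences, and how reads that match several places were handled is not given in the sources used here.

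CCR7, the receptor that guides dendritic cells to lymph nodes, was barely detected. Ccr7 had 0 counts in every Veh library, 2, 1 and 4 counts in LPS, and 3, 1 and 0 in T0+LPS. It did not pass the filter on low counts and was not tested. The 0 counts of the Veh libraries allow a level of up to 0.0669 CPM by library totals over the group, at 3 counts of 44853511, and this limit covers counting error only. LPS had 7 counts in all, or 0.167 CPM by library totals.

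Among complement receptors, C3ar1, which binds the fragment C3a, was the most abundant gene of the 9. Its level was 2261, 2352 and 2246 CPM in Veh, 2135, 2240 and 2314 CPM in LPS, and 2594, 2576 and 2438 CPM in T0+LPS. Veh and LPS overlapped, and all T0+LPS libraries were above both. The log2 change with LPS was -0.03 ± 0.04 (adjusted p = 0.49, edgeR), but with library totals it was -0.32 and called lower (adjusted p = 5.8e-06). T0+LPS was at 114% of LPS (log2 change 0.19 ± 0.05, adjusted p = 0.035, edgeR), and the call was lost without the first LPS library (adjusted p = 0.28), the second (0.075), the first T0+LPS library (0.13) or the second (0.14). Against Veh, T0+LPS was higher by 0.13 ± 0.04 (adjusted p = 0.0057, edgeR) and lower by library totals, with -0.13 (adjusted p = 0.0033).

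C5ar1, which encodes the receptor for the neutrophil and macrophage attractant C5a, was measured on few bases. Its 2 rows overlap, and 119 of 2540 bases were counted for 1 row or the other. The counts were 63, 80 and 59 in Veh, 61, 79 and 80 in LPS, and 68, 65 and 79 in T0+LPS, that is 3.37, 5.29 and 3.42 CPM, 4.84, 5.75 and 6.18 CPM, and 5.18, 4.53 and 5.48 CPM. All 3 groups overlapped. The log2 change with LPS was 0.50 ± 0.18 (adjusted p = 0.028, edgeR). It was not called with library totals (log2 change 0.21, adjusted p = 0.31), in DESeq2 (adjusted p = 0.086), or without the first or the third Veh library (adjusted p = 0.11 in both) or the second or the third LPS library (0.07 and 0.097). T0+LPS against LPS gave -0.14 ± 0.16 (adjusted p = 0.77, edgeR). T0+LPS against Veh gave 0.33 ± 0.18 (adjusted p = 0.13, edgeR) and was called only without the second Veh library (log2 change 0.55, adjusted p = 0.014).

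**Figure D2:**
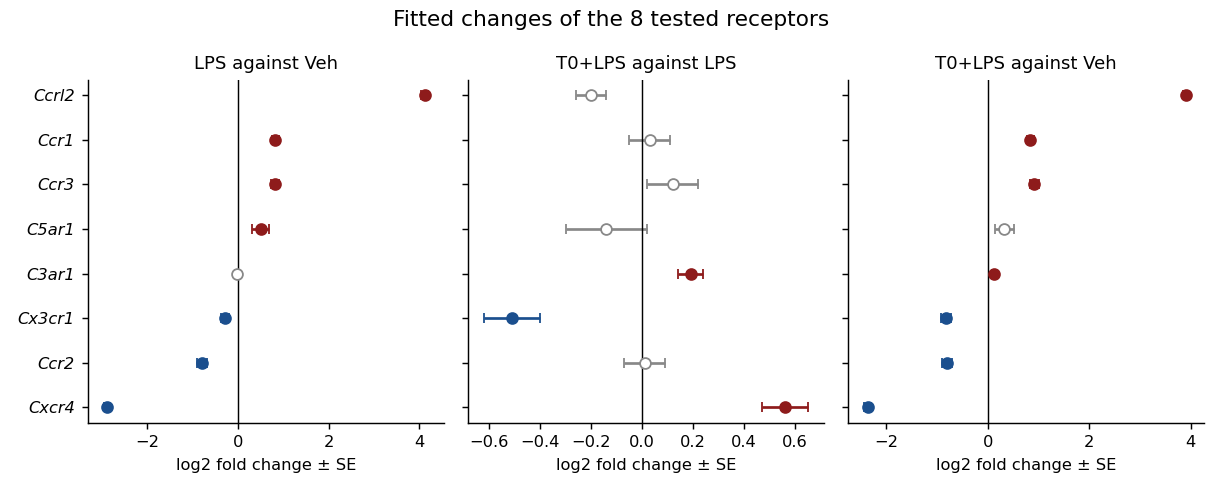
Fitted log2 fold changes of the 8 tested receptors, with bars of 1 SE, in the 3 comparisons (1 panel each, with different ranges on the horizontal axes). Filled red points were called higher, filled blue points lower, and open grey points were not called. Ccrl2 at 4.12 and Cxcr4 at -2.89 lie at the ends for LPS against Veh, and Cxcr4 at 0.56 and Cx3cr1 at -0.51 lie at the ends for T0+LPS against LPS.

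Levels of different genes were compared per kilobase of unshared bases. In Veh the order was C3ar1 at 532 ± 13.4 (SD, n = 3) CPM per kilobase, Cxcr4 at 132 ± 9.05, C5ar1 at 33.8 ± 9.21, Ccr2 at 21.9 ± 3.86, Ccrl2 at 15.5 ± 1.16, Ccr1 at 8.67 ± 0.62, Cx3cr1 at 5.85 ± 0.39, Ccr3 at 3.54 ± 0.03 and Ccr7 at 0. Each gene's libraries were apart from those of the next. In LPS the order was C3ar1 at 519 ± 21.0, Ccrl2 at 269 ± 21.0, C5ar1 at 47.0 ± 5.77, Cxcr4 at 17.8 ± 1.62, Ccr1 at 15.4 ± 1.89, Ccr2 at 12.6 ± 1.56, Ccr3 at 6.23 ± 0.56 and Cx3cr1 at 4.81 ± 0.46. Cxcr4 overlapped with Ccr1 there, and Ccr1 with Ccr2. Ccrl2 thus went from the fifth place to the second and Cxcr4 from the second to the fourth.

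In T0+LPS the order was the same as in LPS. C3ar1 was at 590 ± 19.9 CPM per kilobase, Ccrl2 at 234 ± 11.5, C5ar1 at 42.5 ± 4.09, Cxcr4 at 26.3 ± 2.87, Ccr1 at 15.7 ± 1.11, Ccr2 at 12.6 ± 0.30, Ccr3 at 6.78 ± 0.68 and Cx3cr1 at 3.39 ± 0.42. No neighbours overlapped in that group. The place of C5ar1 rests on its 119 unshared bases. Divided by the full 2540 bases it was at 1.59 in Veh, 2.20 in LPS and 1.99 in T0+LPS, below the other 7 tested receptors. Those values are too low, since reads on the shared bases were not counted.

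As a share of the summed level per kilobase, C3ar1 made up 70.2% to 70.9% in Veh libraries, 56.5% to 60.2% in LPS and 61.4% to 64.6% in T0+LPS. Ccrl2 made up 1.85% to 2.22%, then 27.5% to 32.6%, then 24.3% to 26.8%. Cxcr4 made up 16.0% to 19.0%, then 1.82% to 2.09%, then 2.58% to 3.12%. This sum covered only the receptors picked by symbol. Within it, LPS libraries held mostly C3ar1 and Ccrl2, where Veh libraries held mostly C3ar1 and Cxcr4. Receptors outside the pick were not in the sum. Among them Ptafr, the receptor for platelet-activating factor, was at 293 CPM per kilobase in Veh and 418 in LPS. That was above Cxcr4 in Veh (132) and above Ccrl2 in LPS (269).

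**Figure D3:**
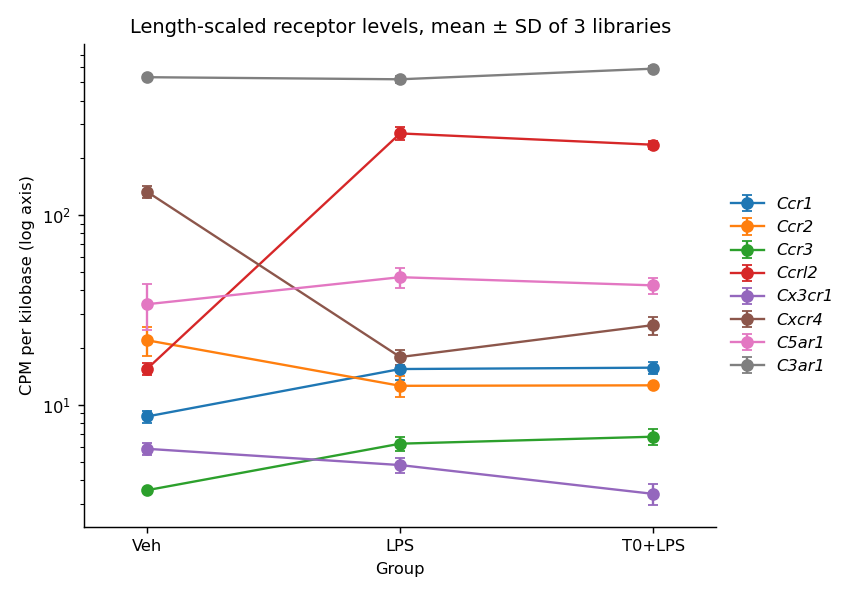
Mean level ± SD of 3 libraries in CPM per kilobase of unshared bases, on a log axis, for the 8 receptors other than Ccr7, in Veh, LPS and T0+LPS. Lines join the groups of 1 gene and cross where Ccrl2 rose from 15.5 to 269 and Cxcr4 fell from 132 to 17.8.

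The genes whose log2 CPM ran most closely with each receptor over the 9 libraries were listed among 7301 genes with a mean of at least 5 CPM. The libraries of Veh, LPS and T0+LPS were pooled, so the difference between Veh and the groups given LPS makes r high for many pairs. For that reason r is given as a description. Cxcr4 was closest to Slc40a1, the iron exporter ferroportin (r = 0.9994), which was at 200 CPM in Veh, 40.2 in LPS and 54.7 in T0+LPS. Ccrl2 was closest to Zc3h12a, an RNA-degrading enzyme of the inflammatory response (r = 0.9996), at 32.8, 349 and 313 CPM. For the others these were Nop2 for Ccr1 (r = 0.9895), D1Ertd622e for Ccr2 (0.9764), Tbl1x for Ccr3 (0.9960), Nsun3 for Cx3cr1 (0.9924), Nudt4 for C5ar1 (0.9755) and Ppp5c for C3ar1 (0.9466). Between receptors r was 0.94 for Ccr1 and Ccr3, and -0.99 for Ccrl2 and Cxcr4.

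Ligands of these receptors rose together with LPS. Of 18 ligand genes listed, 9 were tested and all 9 were higher in LPS than in Veh, beside 32.9% of all genes. The median log2 change was 4.32, against 0.00 over all genes. Ccl7 (5, 3 and 8 counts in Veh), Ccl12 (6, 4 and 1) and Cx3cl1 (15, 6 and 17) passed the filter on low counts through their LPS libraries. Such genes could hardly be called lower, so the count and the median are no test of a joint rise. By library totals 8 of the 9 were called higher and 0 lower. Ligands of CCR2 rose by 5.61 ± 0.22 (Ccl7), 5.29 ± 0.12 (Ccl2) and 3.14 ± 0.38 (Ccl12) on the log2 scale, while Ccr2 fell. Ligands of CCR1 rose by 5.22 ± 0.09 (Ccl5), 4.38 ± 0.06 (Ccl3), 2.11 ± 0.04 (Ccl9) and 0.20 ± 0.05 (Ccl6), of which Ccl6 is the gene that turned direction by library totals. Cx3cl1, the ligand of CX3CR1, rose by 4.32 ± 0.21, from 0.728 to 15.0 CPM, while Cx3cr1 fell.

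No ligand was called by edgeR in T0+LPS against LPS, where the median log2 change was -0.06 and 3 of the 9 had an unadjusted p under 0.05 (Ccl3 and Ccl5 lower, Ccl6 higher). limma-voom called 0 and DESeq2 called 2, Ccl3 and Ccl5, as lower. With no filter on low counts edgeR called 5 of the 9, with Ccl2, Ccl3 and Ccl5 lower and Ccl6 and C3 higher. That unfiltered fit could give far smaller adjusted p than the main fit at nearly the same log2 change. For LPS against Veh it gave Ccr1 2.7e-27 in place of 2.9e-07 (edgeR, log2 change 0.81 and 0.83). Its calls were thus easier to reach, and the cause was not tested. Ccl2 was at 75.2 CPM in LPS and 62.7 CPM in T0+LPS (log2 change -0.26 ± 0.14, adjusted p = 0.45, edgeR). Cx3cl1 was at 15.0 CPM in both. Cxcl12, the ligand of CXCR4, did not pass the filter and had 2, 1 and 1 counts in Veh, 11, 8 and 6 in LPS, and 11, 5 and 4 in T0+LPS. Hc, which encodes C5, had at most 1 count in any library, and the chemerin gene Rarres2 and the eotaxin gene Ccl11 had none.

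Of 29 other chemoattractant receptors, 10 were tested, of which LPS raised 5 and lowered 3, where 32.9% of all genes were called higher and 31.2% lower. Their median log2 change was 0.21. Xcr1, with 2, 7 and 3 counts in Veh, passed the filter on low counts through its LPS libraries and could hardly be called lower. By library totals 5 were called higher and 5 lower. The formyl peptide receptors rose, Fpr2 by 3.06 ± 0.09 and Fpr1 by 2.64 ± 0.13 on the log2 scale. S1pr1, a receptor for sphingosine 1-phosphate that guides egress from tissues, fell by 1.40 ± 0.09. Its levels were 67.9, 54.9 and 57.7 CPM in Veh, 20.9, 22.3 and 25.2 CPM in LPS, and 33.1, 30.3 and 29.9 CPM in T0+LPS. The T0+LPS libraries of S1pr1 lay between the other groups, the order seen for Cxcr4.

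In T0+LPS against LPS, 2 of the 10 were higher and 1 was lower, beside 1.35% and 1.83% of all genes, and the median log2 change was 0.03. S1pr1 was higher by 0.45 ± 0.08 (adjusted p = 0.0064, edgeR), a call that was lost without the first LPS library (adjusted p = 0.053). Fpr1 was higher by 0.41 ± 0.10 (adjusted p = 0.031, edgeR), and not called without the first LPS library (0.18) or the first or second T0+LPS library (0.12 and 0.081). Ptafr, the receptor for platelet-activating factor, was at -0.23 ± 0.04 on the log2 scale (adjusted p = 0.0066, edgeR), and not called without the first LPS library (0.077) or the second T0+LPS library (0.052). Against Veh, T0+LPS had 5 of the 10 higher and 4 lower, beside 32.4% and 32.9% of all genes. Gpr183, an oxysterol receptor, was at -2.00 ± 0.20 (adjusted p = 2.9e-07, edgeR). It was already lower in LPS against Veh, by -1.07 ± 0.19 (adjusted p = 0.00016, edgeR). For T0+LPS against LPS it was at -0.90 ± 0.28 and not called (adjusted p = 0.11, edgeR). Ptafr turned direction by library totals in T0+LPS against Veh.

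Of 30 genes for receptor signalling and desensitization, 17 were tested for LPS against Veh, of which 10 were higher and 4 lower, beside 32.9% and 31.2% of all genes, with a median log2 change of 0.17. By library totals 5 were called higher and 9 lower, where lower calls were 76.2% of all calls. The RGS proteins, which switch off G protein signals, did not move one way: Rgs2 fell by 2.23 ± 0.08 and Rgs14 by 1.18 ± 0.07, while Rgs16 rose by 1.38 ± 0.12 and Rgs1 by 0.70 ± 0.05 on the log2 scale. Pik3r5, a regulatory subunit of the phosphoinositide 3-kinase that G proteins activate, rose by 1.98 ± 0.05.

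For T0+LPS against LPS, 18 were tested, with 2 higher and 2 lower, beside 1.35% and 1.83% of all genes, and a median log2 change of -0.01. Rgs16 was at 26.6, 21.3 and 19.3 CPM in LPS and 11.0, 11.1 and 16.3 CPM in T0+LPS, without overlap, a log2 change of -0.80 ± 0.15 (adjusted p = 0.0048, edgeR). The GTPase gene Rac2 was higher by 0.26 ± 0.05 (adjusted p = 0.0048, edgeR), and both calls were made without any 1 library. The Rac activator gene Prex1 was higher by 0.25 ± 0.05 (adjusted p = 0.014, edgeR), a call lost without the first LPS library (0.13) or the second T0+LPS library (0.087). Grk5, a kinase that marks activated receptors for arrestin, was at -0.28 ± 0.07 (adjusted p = 0.032, edgeR) and was not called in 5 of the 6 fits made without 1 library, with adjusted p up to 0.16. Genes such as Arrb2, Gnb1 and Vav1 had no reads, with 0, 3 and 0 unshared bases.

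**Figure D4:**
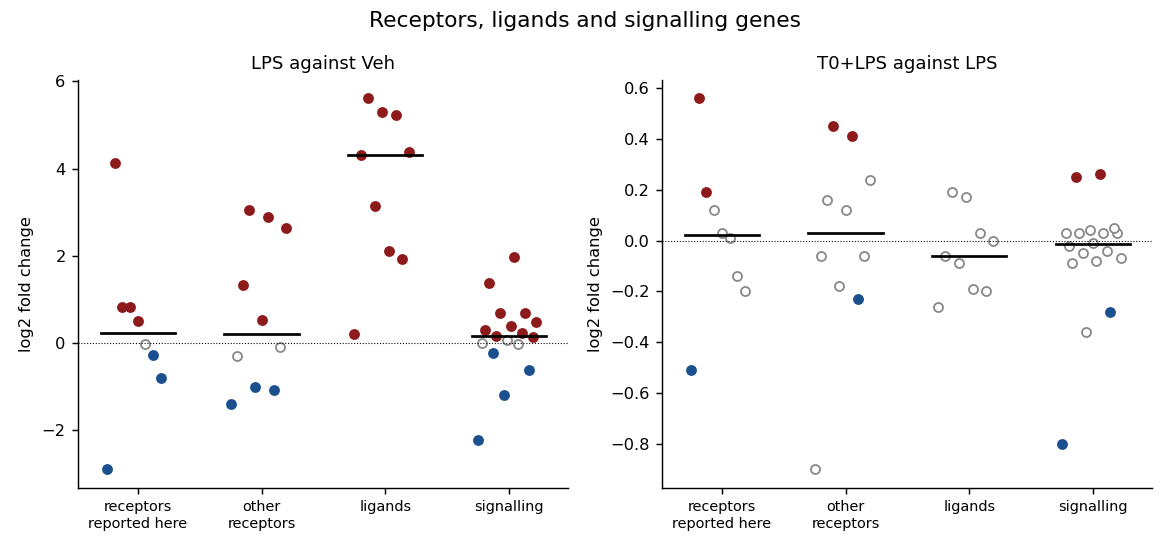
Log2 fold changes of tested genes in 4 lists, for LPS against Veh (left) and T0+LPS against LPS (right, with a narrower vertical axis). Points are genes, red for called higher, blue for called lower and open grey for not called, and black bars are list medians. The ligand median is 4.32 on the left and -0.06 on the right, and the medians of the reported receptors are 0.23 and 0.02.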

How the data were processed

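RNA was sequenced from 9 libraries of BMDMs, 3 each of Veh, LPS and T0+LPS. The authors trimmed adaptors with cutadapt, aligned reads to mm10 with HISAT2 and counted them on RefSeq transcripts with featureCounts, and deposited the counts without normalization. Reads on bases that several rows share are not in these counts. The authors' own comparison tables, which hold fold values, adjusted p-values and gene names, were not used.

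The 9 genes, the further lists and the alternatives were chosen with earlier results of these data known. Counts of one symbol were added over rows (32850 rows, 24061 symbols). The main test was edgeR 4.0.16 (quasi-likelihood, TMM, filterByExpr, Benjamini-Hochberg, threshold 0.05) in R 4.3.3, fitted to the 6 libraries of each comparison, and the SE is the absolute log2 change divided by the root of F. The code was tested on simulated data. Levels are CPM with TMM over 9 libraries. DESeq2 1.42.0, limma-voom (limma 3.58.1), library totals, other size factors, other filters, unsummed rows, 1 fit to all libraries, the replicate block and fits without each library were alternatives.

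Genes named are the 9 receptors, the called genes with the largest change in each list and comparison (up to 4 other receptors, 6 ligands and 5 signalling genes), treatment check genes and the gene closest to each receptor. Ccr9, Cxcr6, Cxcl12, Hc, Rarres2, Ccl11, Ccl6, Ccl9, C3, Arrb2, Gnb1, Vav1, and the marker genes are named outside that rule and were chosen after their values were seen. Replicate pairs differed by more than sampling noise, with chi-square per degree of freedom of 2.63 to 6.67. 1 further gene is not reported here by name.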

Additional observations from a re-analysis of the deposited data

How the results depend on the processing

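Of the members' fold changes under alternatives, 354 kept direction and call, 19 lost the call, 5 gained one and 6 turned direction. The turned ones were C3ar1 for T0+LPS against Veh by library totals (-0.13) and, for T0+LPS against LPS, changes near 0 in fits without 1 library, with Ccr1 from -0.04 to 0.13 and Ccr2 from -0.08 to 0.10. By library totals 1694 genes were called higher and 5411 lower for LPS against Veh, and 1659 and 5523 for T0+LPS against Veh; the median of all genes then lay at -0.28 and -0.29. For T0+LPS against LPS, 126 genes were called higher and 171 lower, which became 225 and 285 with no filter on low counts. There 2 receptors were called lower in DESeq2, 2 with no filter and 2 at an adjusted p under 0.10, Ccrl2 joining Cx3cr1. Fits without 1 library called 59 to 167 genes higher and 82 to 191 lower there, with 1 to 2 receptors higher and 0 to 1 lower; the counts were 59 and 82 without the first LPS library, 78 and 94 without the second T0+LPS library, and 103 lower without the first T0+LPS library. The cause of these changes was not tested. Whether replicate numbers pair the cultures is not stated in the sources used here. Deviations of same-numbered libraries from their group means correlated at -0.014 to 0.046, which does not settle it. With the replicate block, edgeR called 155 genes higher and 230 lower for T0+LPS against LPS, with Ccl5 among the lower, and the same 2 receptors higher and 1 lower. DESeq2 with the replicate block called 70 and 83 genes, 1 receptor higher (Cxcr4) and 0 lower (2 higher and 2 lower at an unadjusted p under 0.05), and 1995 genes lower for T0+LPS against Veh. In it Cx3cr1 (adjusted p = 0.12) and C5ar1 (0.18) were not called for LPS against Veh, nor Cx3cr1 (0.18) and C3ar1 (0.068) for T0+LPS against LPS. Depth limits Ccr7 and Xcr1, whose counts were low, and C5ar1 was counted on few bases.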
